A study of Homo sapiens with 12 samples.

Results

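The genes described here code for the proteins of the mitochondrial ribosome. They are the protein-coding genes of GENCODE 29 whose symbol is MRPL or MRPS followed by a number, 78 of the 58735 genes counted. By symbol, 49 belong to the large subunit (MRPL) and 29 to the small subunit (MRPS). The rule uses the name alone and no measured value.

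RNA was sequenced from HEK293T cells, a line from human embryonic kidney, 24 h after transfection. Cells given 500 ng of a plasmid for miR-211 (3 libraries) were set against cells given 500 ng of a control plasmid (3 libraries). Cells given 1 nM of an siRNA against U1 small nuclear RNA (3 libraries), which base-pairs with 5 prime splice sites, were set against cells given a scrambled oligo (3 libraries), and the titles of these 6 libraries also carry WT. Per the labels, at least 50% of cells took up the transfected material, judged by GFP, and the siRNA lowered U1 by 30%, so untransfected cells and remaining U1 are part of what was measured.

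The mitochondrial ribosome translates the few messenger RNAs made inside the organelle, which encode core subunits of the respiratory chain and of ATP synthase. Its ribosomal RNAs come from mitochondrial DNA, whereas its proteins are encoded in the nucleus, made in the cytosol and imported. Some of those proteins descend from bacterial ribosomal proteins and others are found only in mitochondria.

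Each library held 4515728 to 9290686 counted pairs, of which the members took 0.993% to 1.13%. One library was unlike the rest. In U1 siRNA replicate 2, the smallest, 44.5% of uniquely mapped pairs fell outside exons, against 14.5% to 25.5% in the other 11. MIR211 had 236 to 271 CPM (counts scaled to a library total of 1000000) with the miR-211 plasmid and 0.134 to 1.30 CPM with the control plasmid. The 15 annotated U1 genes summed to 18.9, 13.95 and 17.1 CPM in the U1 siRNA libraries, against 19.4, 19.3 and 16.5 CPM in those given scrambled oligo, so these groups overlapped. Of 7 genes used to check the line, NEFL (73.2 to 108 CPM) and VIM (45.6 to 61.4 CPM) led, PAX2 was at 0 in 3 libraries and INA in 2. Summed markers reached at most 5.09 CPM for blood, 15.9 for fibroblasts, 6.20 for melanocytes and 4.94 for liver. In bulk RNA, fewer expressing cells and less RNA per cell cannot be told apart.

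The mitochondrial ribosomal protein genes were well expressed per length, with a few members far below the rest. Levels are compared as CPM per kb of merged exons, averaged over the 12 libraries. The median member had 46.2 CPM per kb, with quartiles of 17.6 and 77.3, against a median of 2.88 over the 11888 protein-coding genes that averaged 1 CPM or more. Members of the large subunit had a median of 50.1 CPM per kb and those of the small subunit 30.7. In CPM without length the order was reversed, with medians of 114.5 and 135. Where under 5% of the coding sequence lies inside exons of other genes, the medians were 63.3 and 49.3 CPM per kb.

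The 5 highest members were MRPL51, MRPL39, MRPL14, MRPL18 and MRPS21. MRPL51 and MRPL39 are mitochondria-specific proteins of the large subunit, with 274 and 258 CPM per kb on average. MRPL51 had 222, 275 and 267 CPM per kb with miR-211 and 236, 266 and 285 with the control plasmid. It had 293, 300.0 and 282 CPM per kb given U1 siRNA and 295, 297 and 271 given scrambled oligo. Within each comparison the MRPL51 groups overlapped, and the lowest value was miR-211 replicate 1. MRPL14 and MRPL18, homologues of bacterial L14 and L18, averaged 211 and 210.1 CPM per kb, and MRPS21, homologue of bacterial S21, averaged 140.3.

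The 5 lowest were MRPL23, MRPL38, MRPS24, MRPL53 and MRPL4. MRPL23, whose bacterial homologue lies at the exit of the peptide tunnel, averaged 0.245 CPM per kb, with 2, 6 and 5 counts given miR-211 and 1, 4 and 3 given control plasmid. It had 16, 4 and 2 counts given U1 siRNA and 7, 4 and 5 given scrambled oligo. MRPL38, a protein of the central protuberance, averaged 0.290 CPM per kb, MRPS24, homologue of bacterial S3, 0.446, MRPL53 0.833 and MRPL4, homologue of bacterial L4, 1.38. The first 4 of these had at most 19 counts in any library and none passed the expression filter of either comparison.

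**Figure D1:**
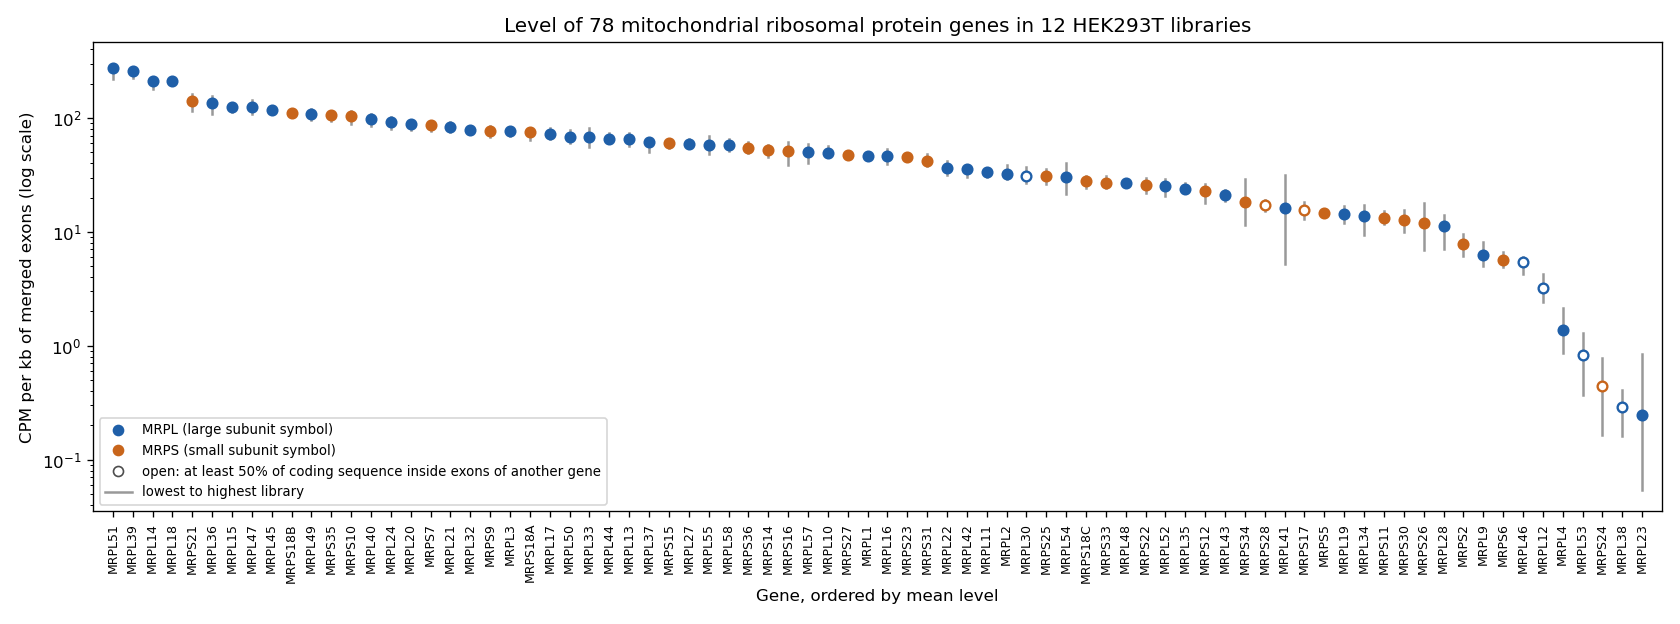
Mean level of each of the 78 members over 12 libraries in CPM per kb of merged exons (log scale), with lines from the lowest to the highest library; open points mark members with at least 50% of the coding sequence inside exons of another gene. MRPL51 leads at 274 CPM per kb, and the right-hand end falls to 0.245 for MRPL23.

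Members whose coding sequence shares exons with other genes had lower median levels, with exceptions. The tables count read pairs without regard to strand, and pairs that touch exons of more than 1 gene are set aside as ambiguous (6.93% to 10.8% of uniquely mapped pairs). In 8 members at least 50% of the coding sequence lies inside exons of another annotated gene, and their median level was 4.34 CPM per kb. The 16 members with 5% to under 50% had a median of 17.7, and the 54 with under 5% had a median of 57.8 and a lowest value of 11.3 CPM per kb. The share of coding sequence overlapped is 100% for MRPL53 (by CCDC142), 94.1% for MRPL38 and 92.2% for MRPS24 (by the read-through gene URGCP-MRPS24). MRPL30 (100% overlapped, 31.2 CPM per kb), MRPS17 (100%, 15.6) and MRPS28 (62.0%, 17.3) were not among the 5 lowest, and MRPL23 was low with 13.3% overlapped. The part of uncounted pairs in these levels was not tested, so a low value for the 8 members is a low counted value.

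The length used moved the ranks of several members. MRPL42, a mitochondria-specific protein of the large subunit, had 35.5 CPM per kb of merged exons, rank 44, and its merged exons add up to 16393 bases. Per kb of its representative transcript (701 bases), a measure added after the data were seen, it had 829 CPM per kb and rank 1. The ranks of the 78 members by both lengths had a Spearman rho of 0.852, given as a description. MRPS27 moved to rank 12 by transcript from 38 by merged exons, MRPL22 to 10 from 43, MRPL27 to 9 from 30 and MRPL43 to 34 from 57 (MRPL22 and MRPL27 were named after their values were seen). Of the 5 highest by merged exons, MRPL51 had rank 2 by transcript, MRPL18 rank 4, MRPL39 rank 7, MRPL14 rank 13 and MRPS21 rank 19. By transcript MRPL23, MRPL38, MRPS24 and MRPL4 had 1.19, 0.563, 1.65 and 3.46 CPM per kb.

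Several members are named for a subunit or a complex where their protein does not sit. MRPS30 and MRPS18A are built into the large subunit, and MRPS36 is a component of the alpha-ketoglutarate dehydrogenase complex. MRPS30 averaged 12.7 CPM per kb, MRPS18A 75.1 and MRPS36 54.3. The paralogs MRPS18A, MRPS18B and MRPS18C, related to bacterial S18, had 75.1, 111 and 28.0 CPM per kb; MRPS18C has 45.1% of its coding sequence overlapped, MRPS18A 24.2% and MRPS18B 0%.

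Some short motifs were more frequent in the members' promoters than in promoters at large. RefSeq promoters on GRCh38.p14 (250 bases before to 50 after the start) were matched for 69 of the 78 genes, 85 promoters in all. CCGGAAG, the core bound by ETS factors, was present on either strand in 38.8% of them, against 12.8% of 22199 promoters of protein-coding genes. AAGATGG, the core of the YY1 motif, was present in 31.8% against 6.04%, and CATGCGC, a half-site of NRF1, a regulator of nuclear genes for mitochondria, in 8.24% against 5.26%. CCAAT was present in 32.9% against 34.7% and TATAAA in 3.53% against 9.47%. No test was run, and a match is not a binding site. None of these motifs contains another, and promoters holding several were counted for each. Some matches in members that the naming rule picked are shown on the gene's strand, with 1 match of each window in capitals.
MRPL51 (ETS core, 98 bases before the start, chr12:6493349-6493377, minus strand): cggcaggcggaCCGGAAGcactgaggcgg
MRPL18 (ETS core, reverse complement, 20 bases before the start, chr6:159790430-159790458, plus strand): gggacttgctaCTTCCGGgtcggtggcgt
MRPS34 (ETS core, reverse complement, 13 bases before the start, chr16:1773136-1773164, minus strand): tcttccggtgaCTTCCGGccggaccgctg
MRPL47 (YY1 core, reverse complement, 85 bases before the start, chr3:179604712-179604740, minus strand): gcaggatgtggCCATCTTaagtgagggca
MRPS18B (NRF1 half-site, 16 bases before the start, chr6:30617807-30617835, plus strand): gtttcctgaagCATGCGCagttgcctttc

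Members were compact, and some stood head to head with a neighbour. Their median gene span was 11937 bases against 39410 for expressed protein-coding genes (those averaging 1 CPM or more), and their median coding sequence was 591 bases against 1482. In 17 of 78 members (21.8%) another protein-coding gene starts on the opposite strand within 1000 bases, against 10.02% of protein-coding genes averaging 1 CPM or more. MRPL46 and MRPS11 form such a pair, with starts 34 bases apart. MRPL46 had 32.1, 38.7 and 37.8 CPM with miR-211 and 27.6, 34.3 and 35.8 with the control plasmid, while MRPS11 had 66.9, 74.9 and 80.3 with miR-211 and 66.7, 75.8 and 76.4 with the control plasmid. Replicate 1 was the lowest of each of these groups for both genes. By chromosome, 8 members each lie on chromosomes 1, 2 and 17 and 7 on chromosome 11.

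Spread between libraries was small for most members. The median coefficient of variation of CPM over the 12 libraries was 7.82%, against 13.9% for expressed protein-coding genes. Among members it was lower at higher levels (Spearman rho -0.66 between mean CPM and the coefficient, 78 members). The median member averaged 116 CPM, and no set of genes matched for level was compared. MRPS27, a protein of the small subunit with RNA-binding repeats, was the steadiest member among those averaging at least 10 CPM, at 2.81%. It had 311, 309 and 308 CPM with miR-211 and 312, 309 and 310 with the control plasmid. With U1 siRNA it had 295, 313 and 326 CPM and with the scrambled oligo 299, 325 and 309. MRPL45, which helps anchor the ribosome to the inner membrane, had 3.04% and MRPL18 3.49%.

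Among members averaging at least 10 CPM, the mitochondria-specific proteins MRPL41, MRPS26 and MRPS34 varied most, at 41.6%, 28.8% and 25.4%. The 6 members averaging below 10 CPM ran from 17.9% (MRPL12) to 83.7% (MRPL23). MRPL41 had 6.59, 21.0 and 21.2 CPM with miR-211 and 9.80, 15.7 and 25.5 with the control plasmid. With U1 siRNA it had 39.6, 17.5 and 20.7 CPM and with the scrambled oligo 21.4, 18.8 and 28.9. Replicate 1 was lowest in both plasmid groups and highest with U1 siRNA, and the groups of each comparison overlapped. MRPS34 had 12.5, 18.8 and 22.5 CPM with miR-211, 19.0, 18.3 and 23.5 with the control plasmid, 31.7, 15.1 and 18.8 given U1 siRNA and 16.5, 20.2 and 26.1 given scrambled oligo.

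**Figure D2:**
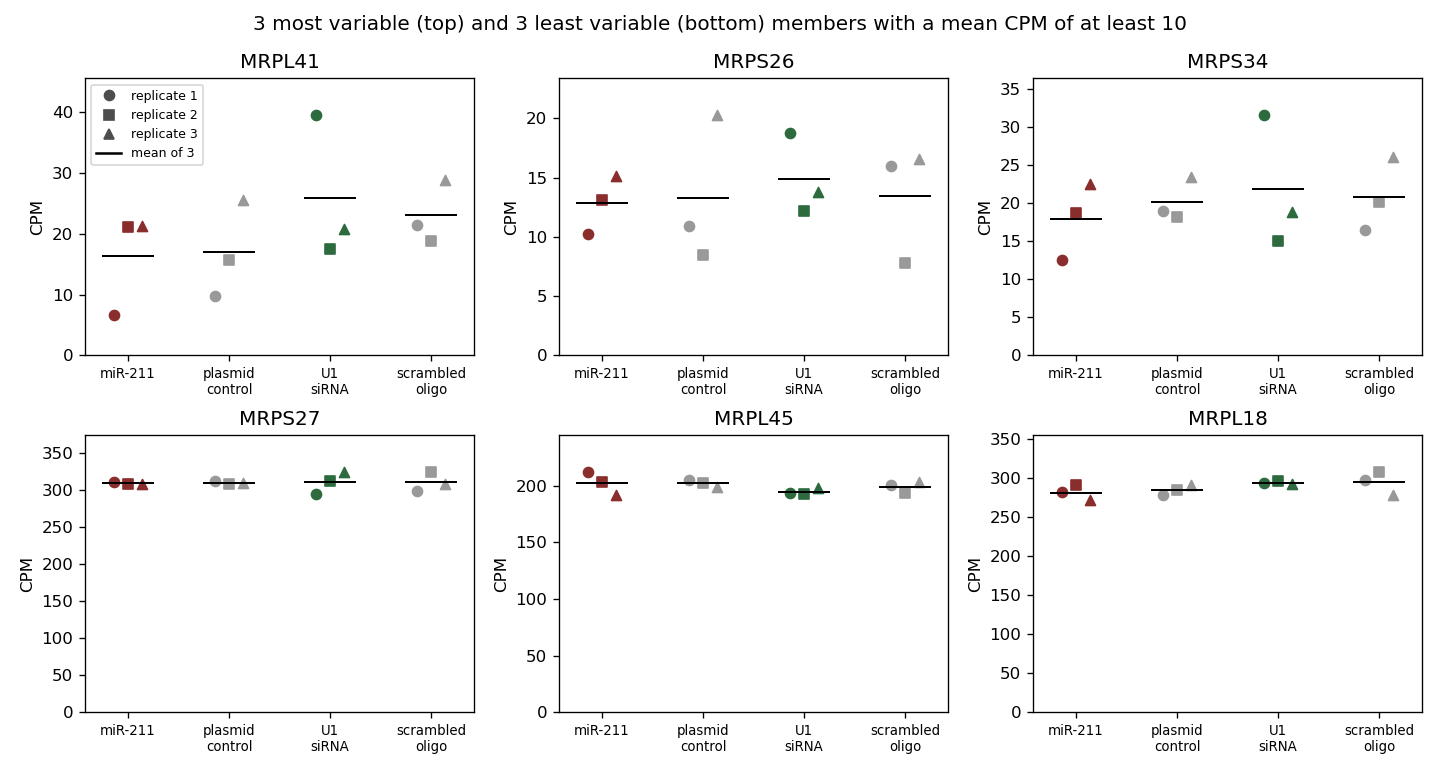
CPM per library of the 3 most variable (top row) and the 3 least variable (bottom row) of the members averaging at least 10 CPM, by group, with a line at the mean of 3 and a marker for each replicate. MRPL41 runs from 6.59 to 39.6 CPM, while MRPS27 stays between 295 and 326 CPM.

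The variable members were rich in G and C. GC content is that of the representative transcript, with a median of 49.6% over the members. The 20 members with the highest GC content (54.6% to 72.0%) had a median coefficient of variation of 16.8% and a median level of 17.4 CPM per kb, and 12 of them averaged under 40 CPM. In the other 3 bins of 19 or 20 members the median coefficients were 7.07%, 7.73% and 6.93% and the median levels 49.2, 51.0 and 57.6 CPM per kb, from low to high GC. Across the 78 members GC content and the coefficient had a Spearman rho of 0.446, against 0.386 across 11873 expressed protein-coding genes. With the spread that counting alone would give taken out, the members' rho was 0.289. Across the 7118 protein-coding genes averaging at least 10 CPM, rho with the coefficient as measured was 0.264. These correlations share library depth and level.

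In both plasmid groups, replicate 1 was the lowest library for more of the high-GC members than of the others. With miR-211, 15 of the 20 high-GC members and 30 of the 58 other members were lowest in replicate 1. The median ratio of replicate 1 to the mean of the other 2 replicates was 0.73 for the high-GC members and 0.96 for the others. With the control plasmid, 15 of 20 and 31 of 58 were lowest in replicate 1, with median ratios of 0.90 and 0.96. With U1 siRNA, 11 of 20 high-GC members and 30 of 58 others were lowest in replicate 2, similar shares, with median ratios of 0.85 and 0.96. With the scrambled oligo, 10 of 20 high-GC members were lowest in replicate 1 (0.90) against 11 of 58 others (1.02), and 6 of 20 (1.22) against 30 of 58 (0.96) were lowest in replicate 3. The part of GC content in the spread was not tested apart from the level.

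**Figure D3:**
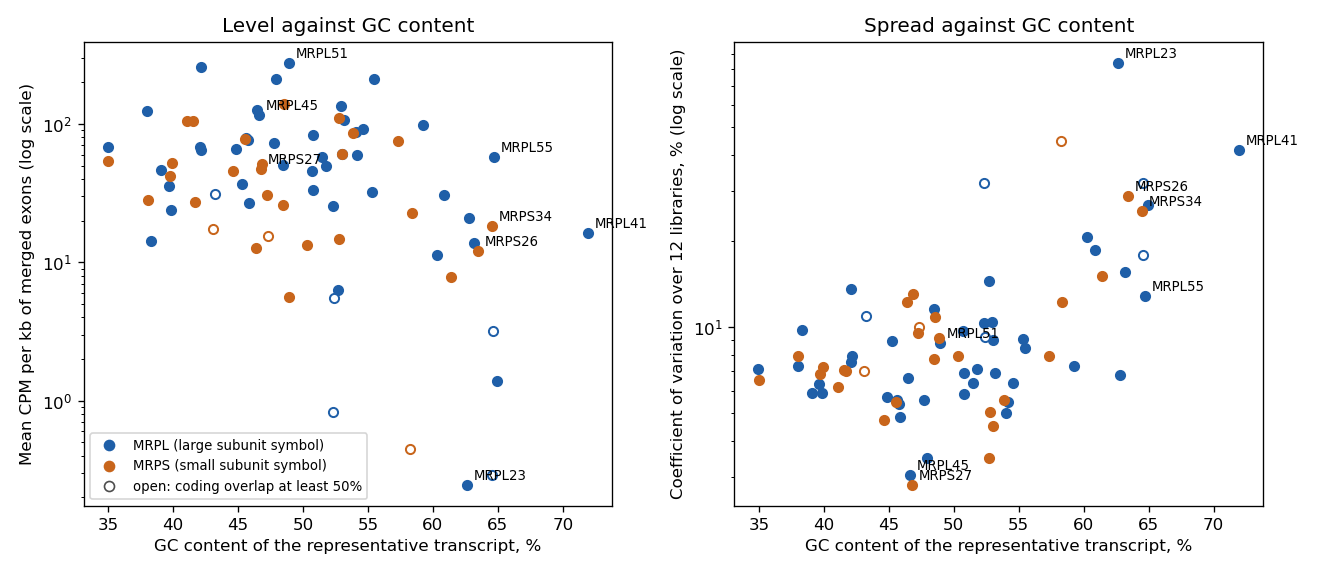
Mean level (left, CPM per kb of merged exons, log scale) and coefficient of variation over 12 libraries (right, %, log scale) of each member against the GC content of its representative transcript. Among members averaging at least 10 CPM, MRPL41, MRPS26 and MRPS34 show the widest spread, at 41.6%, 28.8% and 25.4%.

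Summed over all members, the groups of each comparison overlapped. The 78 members together summed to 9933, 10705 and 10294 CPM with miR-211 and 10154, 10633 and 10642 CPM with the control plasmid. They summed to 11291, 10709 and 11058 CPM given U1 siRNA and 11105, 11098 and 10913 CPM given scrambled oligo. The large subunit made 1.89, 1.91 and 1.90 times the CPM of the small subunit with miR-211 and 1.93, 1.94 and 1.94 times with the control plasmid, groups that did not overlap. Placing MRPS30 and MRPS18A in the large subunit and leaving out MRPS36, an alternative added after the data were seen, gave 2.08, 2.11 and 2.09 with miR-211 and 2.11, 2.14 and 2.14 with the control plasmid, where the groups still did not overlap. With U1 siRNA the ratio by symbol was 1.94, 1.95 and 1.90, and with the scrambled oligo 1.96, 1.94 and 1.93, overlapping. No test was run on these ratios. A sum weights each member by its CPM. MRPL42, the member with the most CPM, averaged 538 with miR-211 and 590 with the control plasmid, with overlapping groups. The part of single members in the ratio was not tested, so it is no measure of a shift shared by a subunit. Among single genes tested, 9.7% did not overlap between the miR-211 and control plasmid groups. A ratio of sums is another measure, and no such share was computed for ratios of other gene sets.

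**Figure D4:**
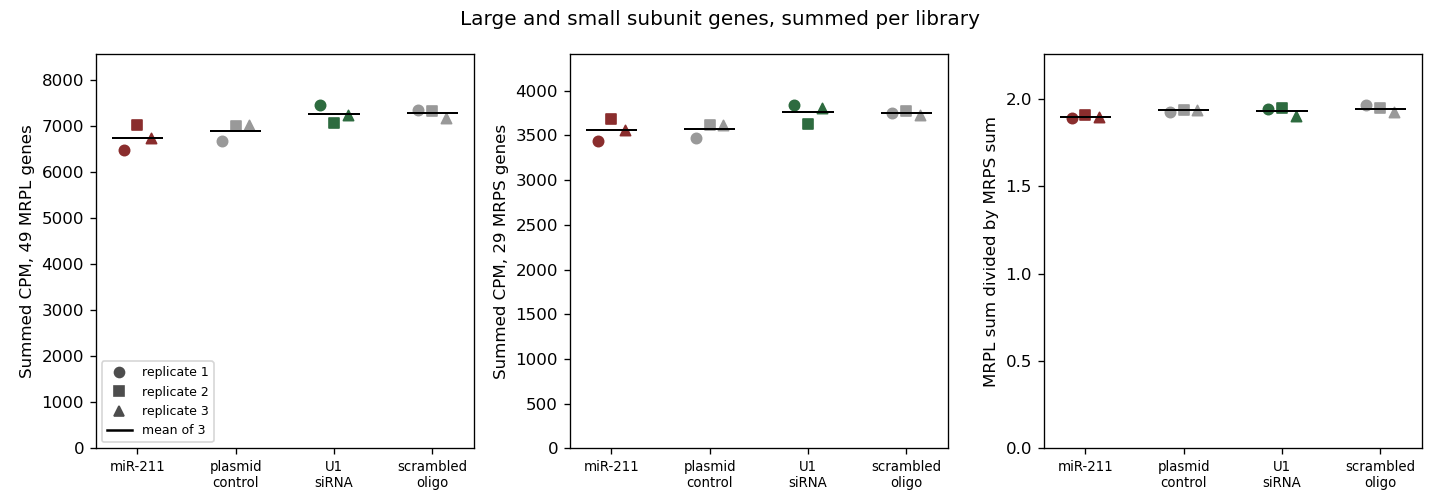
Summed CPM of the 49 MRPL genes, of the 29 MRPS genes and their ratio, for each library by group, with a line at the mean of 3. The ratio runs from 1.89 to 1.91 with miR-211 and from 1.93 to 1.94 with the control plasmid.

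With miR-211, a microRNA encoded in an intron of TRPM1, no mitochondrial ribosomal protein gene passed the test. Of the 78 members 74 had enough counts, and 0 of these were called (edgeR quasi-likelihood test, Benjamini-Hochberg adjusted p under 0.05), where 0.00788% of all 12685 genes tested were. At an unadjusted p under 0.05 there were 0 of 74 members against 3.29% of all genes, and with DESeq2 0 against 1.48%. The median log2 fold change was 0.01, as over all genes (0.01), with 39 members above 0 (51.8% of all genes were above 0) and 35 below. All 74 lay within 0.25 of 0, against 83% of all genes, and so within 0.5, against 96.2%. The median standard error (SE) was 0.085 for members and 0.149 for all genes. The part of this smaller error in the narrower range was not tested. Median log2 fold changes were -0.01 for the large subunit and 0.03 for the small. Leaving out miR-211 replicate 2 turned the members' median to -0.07.

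The 95% interval of the log2 fold change lay within 0.5 of 0, a 1.41-fold change, for 69 of 74 members, and within 1 for all 74. The lowest bound was -0.81, for MRPL12 of the ribosomal stalk, and the highest 0.70, for MRPL41. With the replicate numbers as a block, 4 of 74 members (5.41%) had an unadjusted p under 0.05, against 7.43% of all genes. These were MRPS18C, MRPL43, MRPS7 and MRPL55 (the last named after its values were seen), with adjusted p of 0.627 to 0.666 in that edgeR fit.

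The highest by signed p were MRPS18C, MRPL43, MRPL10, MRPL21 and MRPS7. MRPS18C had 126, 138 and 151 CPM with miR-211 and 120, 117 and 135 with the control plasmid, a log2 fold change of 0.19 (SE 0.09). Its groups overlapped, although it was higher in all 3 same-numbered pairs (unadjusted p 0.01159 in edgeR with the replicate block). In strand column 4 it had 0.02, and without miR-211 replicate 3 it had 0.12; 45.1% of its coding sequence is overlapped. MRPL43, a mitochondria-specific protein, had 81.2, 84.1 and 80.3 CPM with miR-211 and 71.3, 73.1 and 78.6 with the control plasmid, and every miR-211 library was above every control. Its log2 fold change was 0.17 (SE 0.08), and 0.10 in strand column 3. MRPL10, of the base of the stalk, MRPL21 and MRPS7, homologues of bacterial L21 and S7, had 0.13, 0.12 and 0.13. MRPL21 and MRPS7 were each higher in all 3 pairs, and MRPS7 had 0.06 in strand column 3.

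The lowest were MRPS6, MRPL19, MRPL39, MRPL15 and MRPL42. MRPS6, homologue of bacterial S6, had 22.4, 21.0 and 22.8 CPM with miR-211 and 25.2, 25.9 and 26.9 with the control plasmid, and every miR-211 library was below every control. Its log2 fold change was -0.21 (SE 0.11). MRPL19, homologue of bacterial L19, had 55.5, 66.7 and 59.2 CPM with miR-211 and 71.3, 65.9 and 71.2 with the control plasmid, a log2 fold change of -0.17 with overlapping groups. MRPL39, MRPL15 and MRPL42 had -0.10, -0.11 and -0.10, and each was lower in all 3 pairs. The share of all genes whose 3 pairs agree in direction was not computed. The adjusted p (edgeR) of these 10 members was 0.996 each. In all, 6 of 74 members (8.11%) did not overlap between the groups, against 9.7% of all genes. MRPL43 was higher (3.29% of all genes were), and MRPL12, MRPL39, MRPL44, MRPL47 and MRPS6 were lower (6.42%) (MRPL12 and MRPL44 were named after their values were seen).

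Members were also read for matches to the miR-211 seed, bases 2 to 8 of the mature microRNA, which pair with target 3 prime UTRs. The mature sequence (RefSeq, GRCh38.p14, chr15:31065095-31065116, minus strand) is shown with its seed in capitals.
hsa-miR-211-5p: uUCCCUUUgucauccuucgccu
A full match of the seed followed by an A was found in a 3 prime UTR of 8 of 78 members (10.3%), against 8.76% of 19133 protein-coding genes. Members with any match numbered 15 (19.2% against 27.3%). The longest 3 prime UTR of a member had a median of 493.5 bases, against 1104 for protein-coding genes. All annotated protein-coding transcripts with a stop codon were searched, so a site can lie outside the representative transcript. For MRPL42 the longest 3 prime UTR has 14992 bases and the representative transcript 701 bases in all. The same lengths are 2514 and 784 for MRPL22 and 2119 and 716 for MRPL27. Which transcripts were present in these cells was not examined. For the 8 members the log2 fold change had a median of -0.06 under miR-211, 2 above 0 and 6 below, and of -0.01 under U1 siRNA. The 59 tested members with no match had a median of 0.01 under miR-211. No test compared these medians, and no median was computed over all genes with such a match. Leaving out miR-211 replicate 2 alone moved the median of all members to -0.07. Sites of 4 of the 8, those that another part of the naming rule picked, are shown on the transcript's strand with the seed match in capitals, and the coordinates are those of the capitals on GRCh38.
MRPL19 (chr2:75655572-75655578, plus strand): acctgagcAAAGGGAataggtgggat
MRPL42 (chr12:93505471-93505477, plus strand): ttttaggcAAAGGGAatgcttcttca
MRPL35 (chr2:86212736-86212742, plus strand): cttacgggAAAGGGAatttcatacat
MRPS34 (chr16:1771913-1771919, minus strand): aagctatgAAAGGGAataaagagaaa
With miR-211 the log2 fold changes were -0.17 for MRPL19, -0.10 for MRPL42, -0.03 for MRPL35 and -0.13 for MRPS34, none past the test. MRPL19 and MRPL42 are among the 5 members lowest by signed p in this comparison, so their low values were part of why they are shown. The other 4 members with such a site, named after their values were seen, had 0.12 (MRPL17), 0.13 (MRPL27), -0.06 (MRPL22) and -0.05 (MRPS17). No member hosts an annotated microRNA.

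With U1 siRNA no member passed the test either. Of 74 members tested 0 were called (edgeR quasi-likelihood test, adjusted p under 0.05), as were 0% of the 12413 genes tested. At an unadjusted p under 0.05 there were 0 of 74 members, against 1.58% of all genes, with DESeq2 0 against 0.62%, and with the replicate block 0 against 1.8%. The median log2 fold change was -0.004, against 0.02 over all genes, with 36 members above 0 (54.7% of all genes were) and 38 below. Within 0.25 of 0 lay 73 of 74 members, against 81.3% of all genes, the exception being MRPL4. Within 0.5 lay all 74, against 94.3%. Here too members had a smaller error, with a median SE of 0.085 against 0.163 for all genes. Medians were -0.01 for the large subunit and 0.01 for the small. The members' median was -0.06 when U1 siRNA replicate 1 was left out and 0.05 when replicate 2 was. The 95% interval lay within 0.5 of 0 for 66 of 74 members and within 1 for all 74, with bounds of -0.63 (MRPL12) and 0.85 (MRPL4).

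The highest by signed p were MRPS2, MRPL4, MRPS11, MRPS7 and MRPL46. MRPS2, homologue of bacterial S2, had 20.8, 17.1 and 23.0 CPM given U1 siRNA and 15.1, 16.3 and 20.7 given scrambled oligo, a log2 fold change of 0.22 (SE 0.16). It had 0.09 and 0.04 in strand columns 3 and 4, and 0.10 without U1 siRNA replicate 3 to 0.37 without scrambled oligo replicate 3. MRPL4 had 5.99, 5.32 and 5.05 CPM given U1 siRNA and 3.54, 4.74 and 5.06 given scrambled oligo, a log2 fold change of 0.29 (SE 0.26). Both overlapped between groups. MRPS11, MRPS7 and MRPL46 had 0.10, 0.07 and 0.10.

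The lowest were MRPL30, MRPS31, MRPL47, MRPL35 and MRPS14. MRPL30, homologue of bacterial L30, had 91.9, 105 and 84.5 CPM given U1 siRNA and 99.5, 108 and 95.9 given scrambled oligo, a log2 fold change of -0.12 (SE 0.09). MRPS31, a mitochondria-specific protein of the small subunit, had 88.6, 92.3 and 89.4 CPM given U1 siRNA and 103, 98.3 and 89.6 given scrambled oligo, a log2 fold change of -0.11 (SE 0.08). Both overlapped between groups, MRPS31 only through scrambled oligo replicate 3, and in the separate strand columns MRPS31 had 0.01 (column 3) and -0.21 (column 4, unadjusted p 0.03192 by edgeR). MRPL30 had -0.05 in strand column 3 and -0.18 in strand column 4. MRPL47, MRPL35 and MRPS14, homologues of bacterial L29, L35 and S14, had -0.09, -0.09 and -0.07. The adjusted p (edgeR) of these 10 members was 0.9999 each. In 1 of 74 members (1.35%), MRPS28, named after its values were seen, the groups did not overlap, against 6.45% of all genes (3.54% higher, 2.92% lower). It was higher: 34.2, 33.9 and 34.5 CPM given U1 siRNA and 32.7, 32.2 and 30.8 given scrambled oligo.

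**Figure D5:**
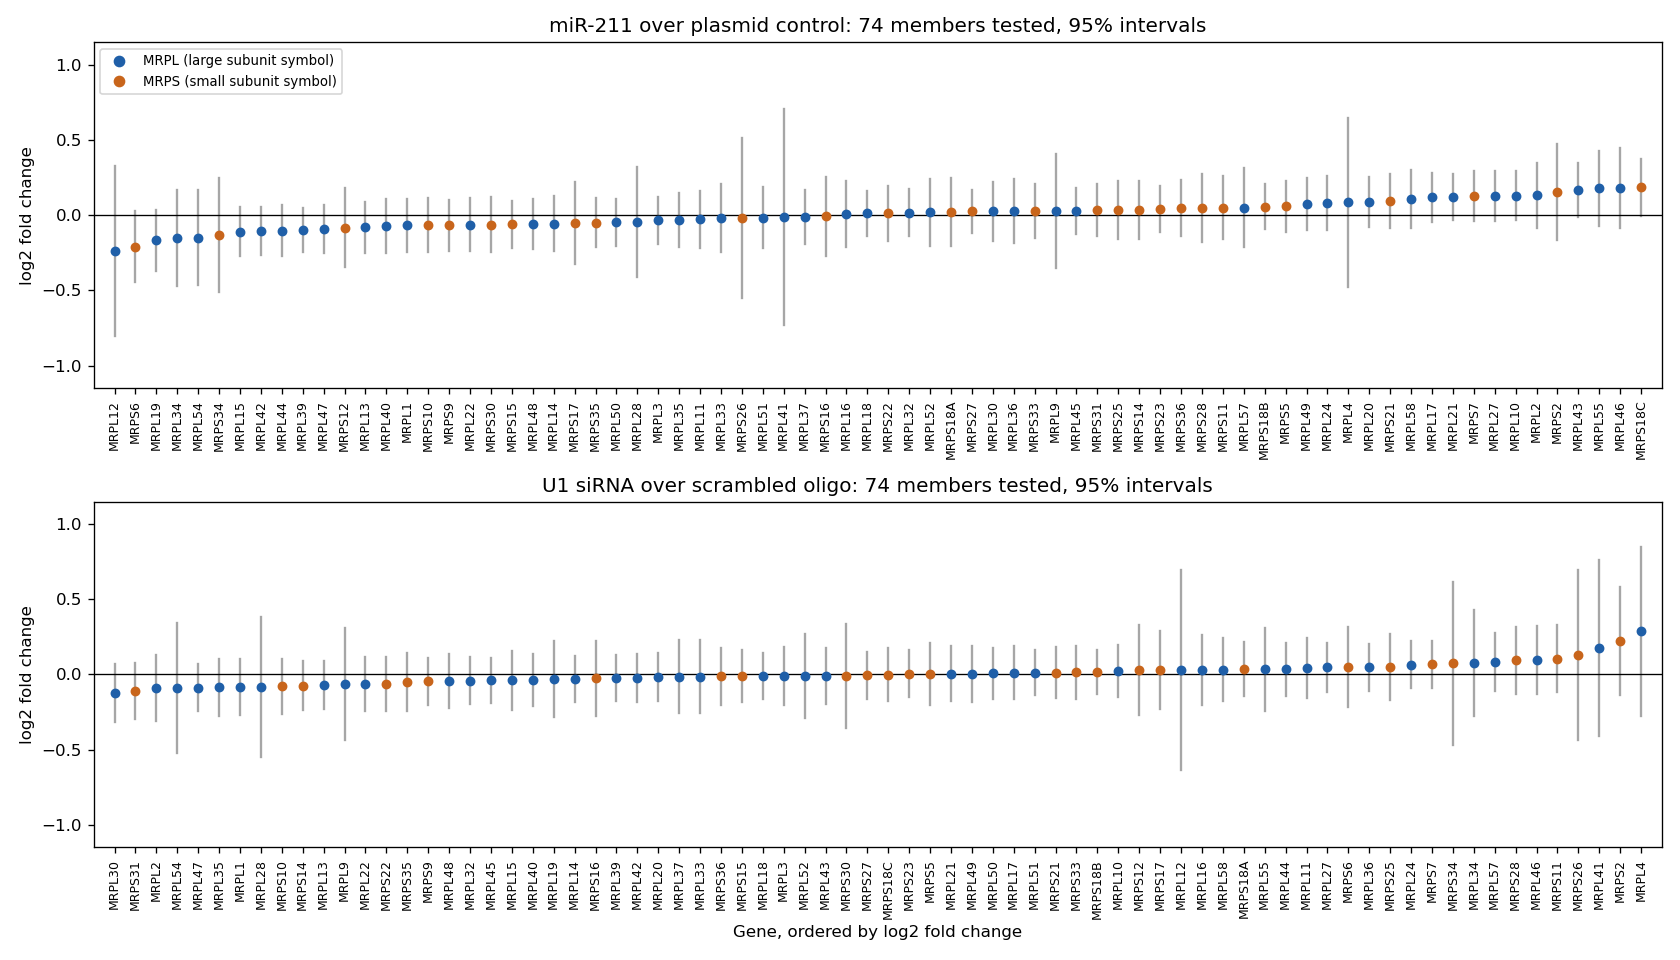
Log2 fold change of the 74 tested members with 95% intervals, miR-211 over the control plasmid (top) and U1 siRNA over the scrambled oligo (bottom), ordered by value. In both panels the points lie between -0.24 and 0.29, and the widest intervals belong to MRPL12, MRPL41 and MRPL4, among others.

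The difference between both effects was tested in 1 fit over the 12 libraries. No member passed: 0 of 75 members tested were called (edgeR quasi-likelihood test), against 0.0074% of 13520 genes, and 0 had an unadjusted p under 0.05, against 1.73%.

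Among other genes of mitochondrial translation, none was called. The 5 mitochondrial ribosomal proteins with other symbols were all tested and 0 were called in either comparison: DAP3, a GTP-binding protein of the small subunit, had log2 fold changes of 0.03 with miR-211 and -0.03 with U1 siRNA, and PTCD3 -0.02 and -0.01. None of 25 assembly and rRNA modification factors, 16 translation factors or 16 of 17 mitochondrial aminoacyl-tRNA synthetases tested was called (edgeR). With miR-211, 1 gene in each of these 3 lists had an unadjusted p under 0.05, where 3.29% of all genes tested did: MTERF3 (-0.27), an rRNA-binding assembly factor, GUF1 (-0.25), a translation factor, and FARS2 (0.30), the phenylalanyl-tRNA synthetase. With U1 siRNA there were 0 in each. The ribosomal RNAs MT-RNR1 and MT-RNR2 had log2 fold changes of 0.23 and 0.10 with miR-211 and -0.18 and -0.19 with U1 siRNA, none past the test.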

How the data were processed

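The deposited files hold raw read-pair counts per gene, made by the authors with STAR 2.7.2a per the submitters' processing notes, and the unstranded column was used. The notes name GRCh37 and hg19, while all 58735 gene identifiers are in GENCODE 29 on GRCh38, from which coordinates are taken. The kit, RNA selection and strand are not given in the sources used here. CPM is the count divided by the library's total over genes, with the 4 summary lines left out. Tests used edgeR 4.0.16 (TMM, filterByExpr, quasi-likelihood, Benjamini-Hochberg over all genes tested) on the 6 libraries of a comparison, or all 12 for the difference of effects, in R 4.3.3. DESeq2 1.42.0, other scaling, no filter, either strand column, a replicate block and leaving out each library were alternatives. Exonic lengths, GC content (representative transcript, the protein-coding one with the longest coding sequence) and overlaps come from GENCODE 29. Members named are the 5 highest and 5 lowest by signed p per comparison and by level, the 3 most and least variable, the S18 paralogs and members whose name and place differ. Members, lists and rules were chosen with earlier results of these data known. Same-numbered miR-211 and plasmid control libraries correlated in their deviations from group means (r 0.248, 0.305 and 0.239). Values were therefore also described by pair, but the main fit was unpaired. Its log2 fold changes, intervals, signed p and adjusted p ignore the pairs, and the replicate block was only an alternative. Nothing in the labels ties replicates to separate cultures, and p-values reflect only how these libraries vary, possibly for technical reasons. No replicate pair agreed within counting noise (chi-square over its degrees of freedom 1.95 to 7.03). Of the members, 34 have a named pseudogene that could take or lend reads.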

Additional observations from a re-analysis of the deposited data

How the results depend on the processing

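The count of members called stayed 0 in each of the 3 tests under every alternative run. Over all genes, the count with miR-211 was 1, and 2 with no filter on low counts, in strand column 3 and in strand column 4. With U1 siRNA it was 0, and 7 with no filter. The difference of effects called 1 gene, 3 with no filter and 0 with total counts only or with the replicate block, and 0 to 1 when a library was left out. With the replicate block the miR-211 member median log2 fold change was 0.01, the large-subunit median -0.02 and the small-subunit median 0.03, and the block changed no call of a member. For U1 siRNA the same-numbered correlations were 0.14, 0.09 and -0.05, so the numbers were not taken as pairs, and 0 members had an unadjusted p under 0.05 with the block. Leaving out 1 library at a time, the miR-211 large-subunit median was lowest at -0.0777, when miR-211 replicate 2 was left out, and highest at 0.0194, and the member median lay between -0.0656 and 0.0373. The U1 siRNA member median was -0.0569 if U1 siRNA replicate 1 was left out and 0.0498 if replicate 2, the library rich in pairs outside exons, was. MRPS31 had 0.0148 with U1 siRNA in strand column 3 and -0.214 in strand column 4. The cause of these shifts was not tested. The members below the filter had at most 19 counts per library, so only a large change in them could be seen at this depth. They were tested with no filter, and none was called.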
